A study of Mus musculus with 8 samples.

Results

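Wnt proteins are secreted, lipid-modified ligands that bind Frizzled receptors together with the co-receptor Lrp5 or Lrp6 on the surface of the receiving cell. In the canonical branch the receptor complex recruits a Dishevelled protein and takes Axin out of the complex that degrades beta-catenin, so that beta-catenin reaches the nucleus and acts with transcription factors of the TCF/LEF family. Other branches run through Frizzled and Dishevelled to cell polarity or calcium, and secreted proteins of the Sfrp, Dkk and Wif families restrain the pathway outside the cell. In the pancreas, Wnt signals are known for roles in the growth of the organ and of its acinar tissue, and TCF7L2 is known as a gene of inherited type 2 diabetes risk.

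The members described here are the probe sets with a single annotated symbol among the Wnt ligands, the Frizzled receptors and Lrp5 and Lrp6, the secreted antagonists (Sfrp, Frzb, Dkk and Wif1), the intracellular relays Ctnnb1, Axin1, Axin2 and Dvl1 to Dvl3, and the transcription factors Lef1, Tcf7l1 and Tcf7l2. This rule found 68 probe sets of 44 genes among 24965 probe sets, which name 13675 genes. The array type MG-U74A held 50 of them (40 genes) among 12488, MG-U74B held 18 (16 genes) among 12477, and 12 genes were on both. The rule itself uses names only and no measured value, although it was drawn up with earlier results of these data known.

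Total RNA of mouse pancreatic islets was hybridised to these Affymetrix oligonucleotide arrays. The comparison is between wild type and Tcf1 knock-out mice, with 2 replicates of each genotype on each array type, 8 arrays in all, and the series describes the replicates as biological. Tcf1 is the name in the labels and an older name of more than 1 mouse gene, and the labels do not say further which is meant. The level of the targeted gene is not analysed here. Strain, age, sex, islet isolation and the kind of knockout allele are not given in the sources used here. Islets are isolated from pancreas as clusters of endocrine cells and can carry acinar, duct, stromal and blood cells with them.

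Each value is a linear intensity per probe set that the authors deposited, and it can be below 0. The median intensity of an array was 104 to 107 on MG-U74A and 138 to 144 on MG-U74B, which gives a scale for the values below, although intensities of different probe sets cannot be set against each other. The 3′ over the 5′ control probe set of Gapdh, whose quotient is a sign of RNA and labelling quality, gave 3.15 to 3.22 in wild type and 0.937 to 0.949 in knockout on MG-U74A, and 3.07 to 3.12 against 0.900 to 0.914 on MG-U74B. This quotient separated the genotypes on both array types. Its part in the differences below was not tested, and with these arrays it cannot be told apart from genotype.

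Markers of other cell types moved with genotype as well, on MG-U74A, where most of them are. Of all probe sets tested there, 23.9% rose and 29.0% fell by the test described below, and the marker counts stand beside these shares. A marker counts once, by its tested probe set with the highest mean, while the shares count every tested probe set. The summed intensity of the B cell markers was 4252 to 4468 in wild type and 17259 to 18359 in knockout, with 6 of 8 tested genes higher, although Cd79a was below 0 in both wild type arrays. Of the fibroblast and stellate cell markers 11 of 14 rose and 1 fell (sums 7223 to 7433 against 20456 to 21607), of the macrophage and dendritic cell markers 10 of 11 rose (3824 to 4015 against 12472 to 12631), and of the T cell markers 3 of 5 rose (835 to 933 against 2151 to 2219), with Cd3e and Cd5 at or below 0 on all 4 arrays. All 8 acinar markers fell (39396 to 39694 against 4983 to 5593), as did all 16 endocrine markers (154631 to 155414 against 90183 to 99247). Of the duct markers 3 rose and 4 fell among 9, of the endothelial markers 6 rose and 1 fell among 10, and of the markers of proliferating cells 9 rose and 1 fell among 12. As a sum the endocrine markers, those of the labelled tissue, thus had signal in both genotypes. The lowest of them in knockout were near 0, with Slc2a2 at 31.5 and 13.2 and Pdx1 at 23.1 and -6.1. The sums of the immune and stromal lists were higher in knockout. The part of any of these markers in the changes of Wnt genes was not tested. In RNA of whole islets fewer cells of a type and less RNA per cell cannot be told apart.

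RefSeq promoters (assembly GRCm38.p6, 250 bases before to 50 after an annotated start) were matched for 30 of the 44 genes, with 38 starts. They were searched on both strands for the core letters of a TCF/LEF site, which are CTTTGAA or the same run ending in AT, TA or TT, and none is a part of another. A match was present in 7 of the 38 (18.4%), against 5544 of all 32851 promoters (16.9%). Of the 14 genes that passed the test below, 11 had a promoter and 2 of these, Wnt5b and Lef1, had a match at one of their starts. The promoters of the members with the largest falls, Wnt4 and Frzb, are shown with those 2 starts, 5′ to 3′, and capitals mark a match. They lie at chr4:137277385-137277684 (plus strand), chr2:80447347-80447646 (minus), chr6:119449337-119449636 (minus) and chr3:131156044-131156343 (plus), in this order.
Wnt4: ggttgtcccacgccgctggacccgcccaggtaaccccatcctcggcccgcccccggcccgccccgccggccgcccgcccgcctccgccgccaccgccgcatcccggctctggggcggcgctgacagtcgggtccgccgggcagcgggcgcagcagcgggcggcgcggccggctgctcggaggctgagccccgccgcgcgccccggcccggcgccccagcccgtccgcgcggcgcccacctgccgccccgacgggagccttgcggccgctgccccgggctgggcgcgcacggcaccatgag
Frzb: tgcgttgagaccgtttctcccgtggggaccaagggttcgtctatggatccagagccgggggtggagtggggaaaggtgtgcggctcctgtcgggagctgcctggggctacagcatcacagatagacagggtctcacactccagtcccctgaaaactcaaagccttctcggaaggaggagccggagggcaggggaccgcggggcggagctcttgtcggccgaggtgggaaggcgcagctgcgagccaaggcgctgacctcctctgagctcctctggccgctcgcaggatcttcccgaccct
Wnt5b, the last listed of 3 starts: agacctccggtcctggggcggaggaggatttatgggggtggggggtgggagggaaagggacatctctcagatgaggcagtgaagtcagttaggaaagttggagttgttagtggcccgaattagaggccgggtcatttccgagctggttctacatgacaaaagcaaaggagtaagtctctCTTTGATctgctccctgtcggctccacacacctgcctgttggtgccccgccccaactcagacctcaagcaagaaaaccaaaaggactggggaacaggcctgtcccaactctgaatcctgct
Lef1, the last listed of 4 starts: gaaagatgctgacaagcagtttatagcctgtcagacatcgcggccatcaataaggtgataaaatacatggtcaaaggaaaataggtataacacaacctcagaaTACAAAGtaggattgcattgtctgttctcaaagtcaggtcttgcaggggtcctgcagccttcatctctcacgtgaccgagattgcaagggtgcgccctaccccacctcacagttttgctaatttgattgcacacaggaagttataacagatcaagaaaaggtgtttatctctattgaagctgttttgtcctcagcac
The Wnt4 promoter held 84.3% G and C with 51 CG dinucleotides, and that of Frzb 64.7% with 20, against medians of 52.7% and 7 over all promoters. The Wnt5b start shown held 55.0% with 7 and that of Lef1 43.7% with 5. No start of Wnt4 or Frzb in the table held the letters searched, and a match here is a description of the sequence and not a binding site.

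On MG-U74A the knockout islets had far less Wnt4, Wnt5b and Frzb signal, and less from the Wnt10b probe set that passed. Signal of Ctnnb1, Dvl1, Axin1 and Fzd3 was moderately lower, and that of Lef1, Tcf7l1, Sfrp2 and Sfrp4 higher. Of the 50 member probe sets 23 had enough signal to be tested, and 12 of these passed (limma, Benjamini-Hochberg adjusted p under 0.05), 4 higher and 8 lower in knockout. That is 52.2% of those tested, beside 52.9% of all probe sets tested on this array type (23.9% higher and 29.0% lower), so the share of Wnt genes that changed was close to the background. The arrays of the genotypes did not overlap for 17 of the 23, beside 79.1% of all tested. The median log2 change was -0.31 over the tested members and -0.09 over all probe sets tested. On MG-U74B 10 of the 18 were tested and 2 rose, Fzd1 and Sfrp5, which is 20% beside 17.5% of all tested (8.59% higher and 8.87% lower). None fell after adjustment, and 3 of the 10 had an unadjusted p under 0.05 in limma, one of them the lower value of Fzd8. The genotypes did not overlap for 6 of the 10, beside 65.0% of all, and the medians were 0.39 for the members and 0.11 for all. A test needed a mean over the 4 arrays of at least 62.5, so a probe set near this level that was tested may owe it to the genotype in which it was high. The knockout mean was under this level for Wnt4, Wnt5b and Frzb, and the wild type mean for Lef1, Tcf7l1 and Sfrp2.

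**Figure D1:**
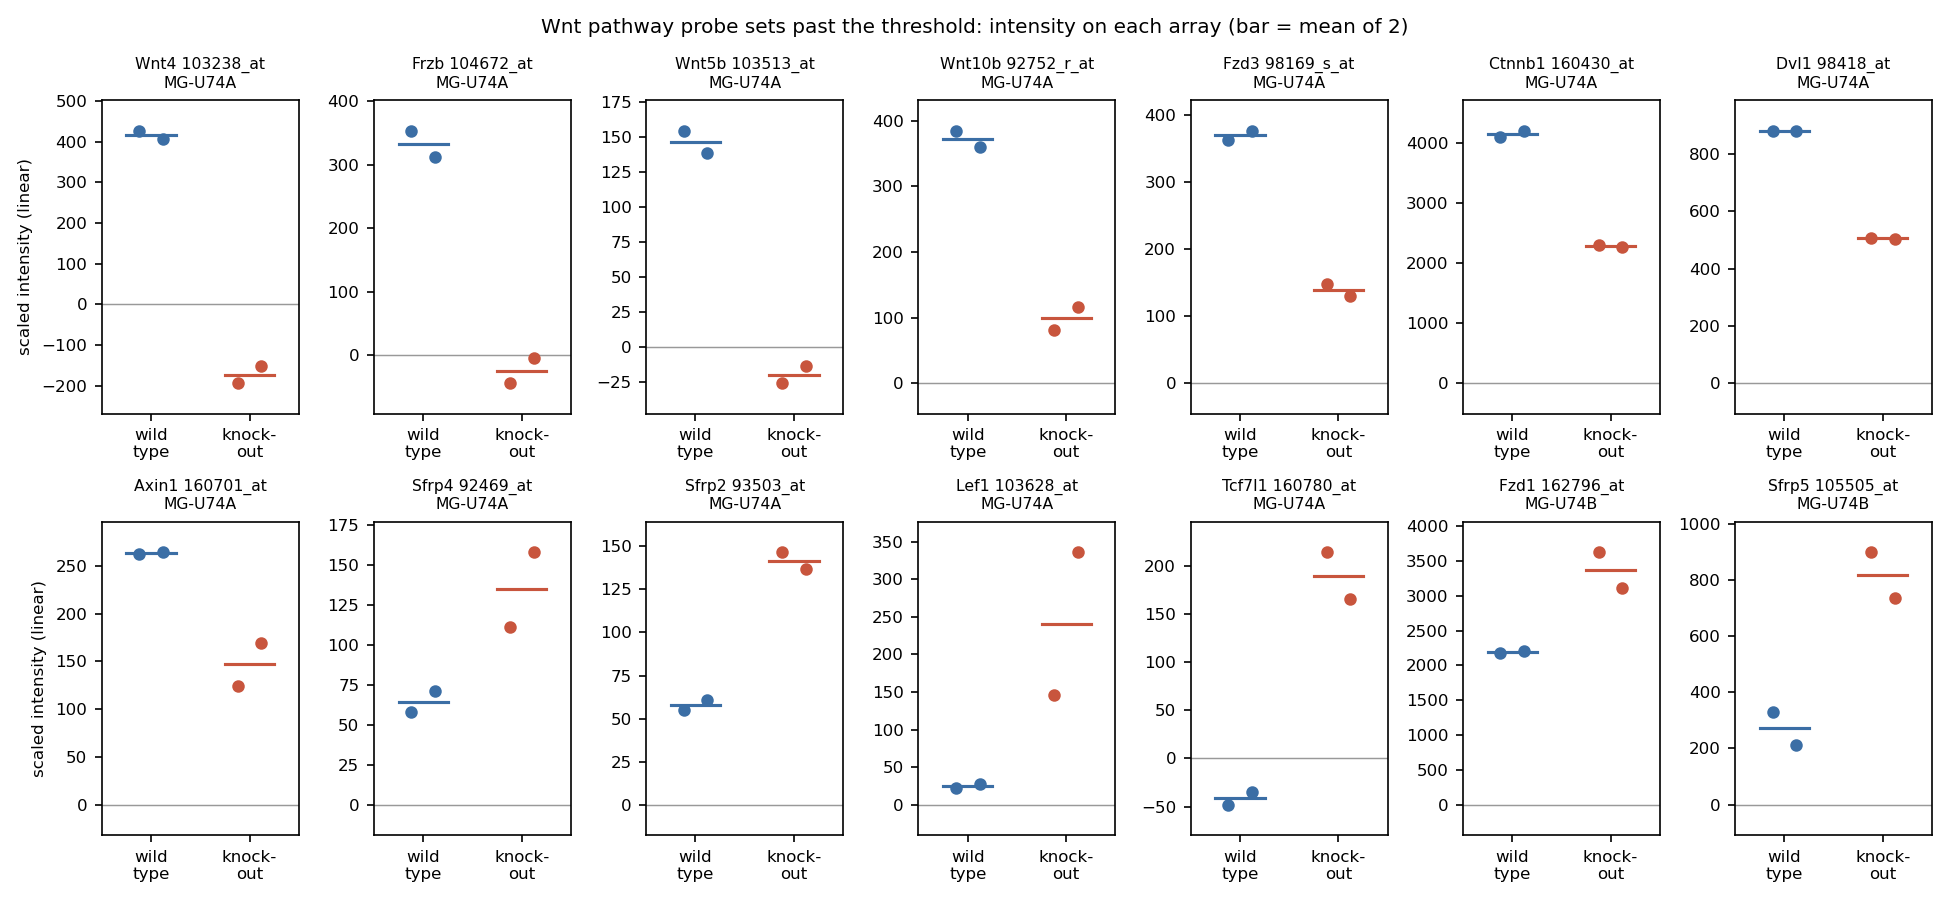
Intensity on each array of the 14 member probe sets that passed the test, 1 panel per probe set with its own linear axis; points are single arrays of wild type and knockout, and lines are means of 2 arrays. The knockout arrays lie below 0 for Wnt4, Wnt5b and Frzb and the wild type arrays below 0 for Tcf7l1, and the genotypes do not overlap in any panel.

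Among the ligands, 3 of the 8 tested probe sets of MG-U74A fell and none rose, beside 29.0% lower and 23.9% higher of all probe sets tested, with unadjusted p under 0.05 for the 3 that fell and for no other. Wnt4, a ligand known for roles in kidney and gonad development, stood at 428 and 407 in wild type and at -194 and -152 in knockout. Both wild type arrays had clear signal and both knockout arrays were listed below 0. Its log2 change was -4.14 ± 0.17 (SE; limma adjusted p = 0.000314). Because a value below 0 was set to 0 before a constant was added, this size depends on the constant, and it ranged from -5.10 to -3.22 with a constant of 5% or 20% of the trimmed mean in place of 10%. Wnt5b, a mostly non-canonical ligand, read 154 and 139 in wild type and -25.6 and -13.6 in knockout. It too was listed below 0 in knockout only, with a log2 change of -2.78 ± 0.23 (adjusted p = 0.00158) that ran from -3.67 to -1.97 over the same constants.

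Wnt10b, a canonical ligand known for restraining fat cell formation, has 3 probe sets on MG-U74A. The first read 385 and 359 in wild type and 80.9 and 116 in knockout, and the mean was 372 ± 18.1 (SD, n = 2) against 98.6 ± 25.1, a ratio of 3.77 of wild type over knockout. Its log2 change was -1.70 ± 0.18 (adjusted p = 0.003). The second read 254 and 271 against 187 and 226, also without overlap, and with -0.31 ± 0.13 it did not pass (adjusted p = 0.106). The last lay below 0 on all 4 arrays, from -84.2 to -54.9. Only 1 of 3 probe sets therefore gave a call for this gene, and the names of the first 2 carry suffixes that the array maker used for reduced or incomplete probe sets.

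The other tested ligands did not pass. Wnt3, a canonical ligand, read 186 and 191 in wild type and 163 and 31.6 in knockout, so that 1 knockout array was close to wild type and the other far below. Its log2 change was -1.05 ± 0.62 (adjusted p = 0.224), and without knockout replicate 1 it was -1.91 and passed (adjusted p = 0.00697). Wnt1 read 90.1 and 64.9 against 89.8 and 122, and Wnt10a 105 and 91.4 against 120.5 and 58.6, each with overlapping genotypes. Wnt7b, on both array types, gave log2 values of 0.01 ± 0.20 for MG-U74A and -0.02 ± 0.41 on MG-U74B, where its arrays read 381 and 639.7 in wild type and 685 and 343 in knockout. Wnt2, on MG-U74B, was 127 and 113 against 151 and 164, with a log2 change of 0.33 ± 0.33 (adjusted p = 0.514).

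The ligands with too little signal to test on MG-U74A were Wnt2b, Wnt3a, Wnt5a, Wnt6, Wnt7a, Wnt8a and Wnt11, and their values lay between -120 and 24.9 over all arrays. Wnt5a, the best known ligand of the non-canonical branches, read -49.4 and -46.2 in wild type and -4.2 and -13.8 in knockout. Values this low, many of them below 0, carry no level to compare.

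Of the receptors, 1 of 4 tested probe sets fell on MG-U74A, beside 29.0% lower of all probe sets tested there. On MG-U74B 1 of 6 rose, beside 8.59% higher of all. Fzd3, a Frizzled known for axon guidance and planar polarity, read 363 and 377 in wild type and 147 and 131 in knockout on MG-U74A. Its mean fell from 369.9 ± 9.69 to 139 ± 11.7, a ratio of 2.66 of wild type over knockout, with a log2 change of -1.27 ± 0.10 (adjusted p = 0.00152). A further Fzd3 probe set had little signal, 52.2 and 46.6 against 54.5 and 23.7, and was not tested.

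Fzd1, a receptor of canonical ligands, read 2179.8 and 2208 in wild type and 3628 and 3117 in knockout on MG-U74B, without overlap. The mean rose from 2194 ± 20 to 3372 ± 361, a ratio of 1.54 of knockout over wild type, with a log2 change of 0.61 ± 0.11 (adjusted p = 0.0286). This call was lost without either wild type array (adjusted p = 0.188 and 0.189) and without knockout replicate 1 (0.0727). On MG-U74A another Fzd1 probe set read -413 and -398 in wild type and 427 and 363 in knockout, and its mean over the 4 arrays was too low for the test. Both probe sets were thus higher in knockout on every array, from very different levels.

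Fzd2 has 3 probe sets, of which the one tested, on MG-U74B, read 228 and 16.6 in wild type and 265 and 405 in knockout. One wild type array lay near 0 and the other just under the lower knockout array, and the log2 change of 1.78 ± 0.91 did not pass (adjusted p = 0.235). The Fzd2 probe set of MG-U74A read 14.5 and 17.0 against 77.8 and 89.6, with no overlap and too little signal for the test, and the remaining one on MG-U74B was below 0 on all arrays.

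Fzd4, the receptor of norrin as well as of Wnt ligands, had the smallest log2 change of the receptors tested on MG-U74A. It read 478 and 506 in wild type and 474 and 515 in knockout on MG-U74A, with a log2 change of 0.01 ± 0.07, and 951 and 606 against 993 and 871 on MG-U74B, with 0.28 ± 0.24 (adjusted p = 0.447). The genotypes overlapped on both array types, and the standard error was smaller on MG-U74A. Its other 3 probe sets lay between -92.9 and 27.8.

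Fzd8, a receptor of canonical ligands, was lower in knockout on both array types without passing. It read 213 and 209 against 188 and 162 on MG-U74A, a log2 change of -0.24 ± 0.12 (adjusted p = 0.168), and 391 and 365 against 108 and 221 on MG-U74B, a log2 change of -1.16 ± 0.37 (adjusted p = 0.100). Neither pair of genotypes overlapped. Fzd6, a receptor of the polarity branch, read 330.5 and 251 in wild type and 955 and 287 in knockout on MG-U74B, where 1 knockout array stood far above the other 3, and its log2 change of 0.82 ± 0.57 did not pass. Fzd7, with 62.9 and 47.3 against 103 and 67.6, gave 0.45 ± 0.49. On MG-U74A the probe sets of Fzd6 (-50.1 to -10.0), Fzd7 (27.2 to 52.6) and Fzd9 (31.3 to 49.6) overlapped between genotypes and were too low to test. Fzd5, known as a receptor in the gut epithelium, read 107 and 103 in wild type and -65.6 and -4.1 in knockout on MG-U74B and was not tested because of its low mean.

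The co-receptors were measured on MG-U74A. Lrp6 read 235 and 181 in wild type and 301 and 247 in knockout, a log2 change of 0.36 ± 0.17 that did not pass (adjusted p = 0.148), although the knockout arrays were both higher. Its second probe set was near 0, at 22.5 and 15.7 against -2.2 and -10.6, and lay in the opposite order. Lrp5 read -5.9 and 85.4 in wild type and -19.3 and -73.0 in knockout, with 1 wild type array alone above 0, and was not tested. No call was thus available for either co-receptor.

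**Figure D2:**
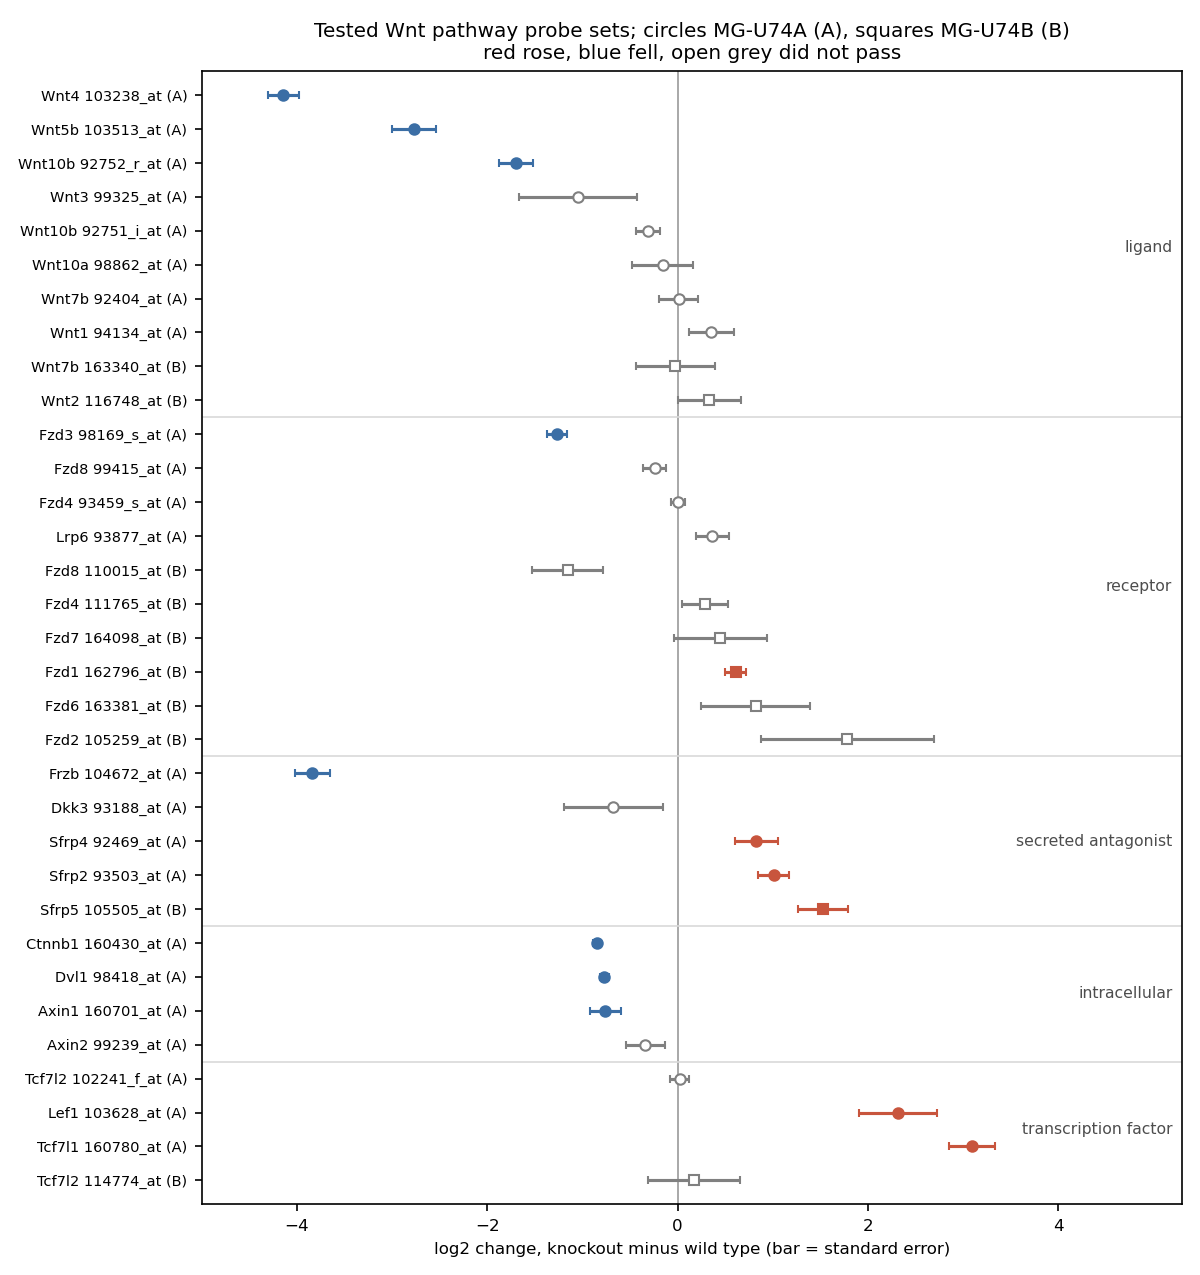
Log2 change, knockout minus wild type, of the 33 member probe sets tested, by role; points are estimates on the log2(intensity + constant) scale with bars of 1 standard error, n = 2 arrays per genotype, and filled points passed the test. The ligands that passed all lie left of 0 and the transcription factors that passed right of 0, while the receptors fall on both sides.

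The secreted antagonists moved in both directions. Frzb, also called Sfrp3, a Frizzled-like protein that binds Wnt ligands outside the cell, read 354 and 313 in wild type and -43.8 and -4.3 in knockout. It was the antagonist with the largest change, listed below 0 in both knockout arrays. Its log2 change was -3.84 ± 0.19 (limma adjusted p = 0.00044) and ran from -4.79 to -2.94 over the constants tried. Frzb reached the level for testing through the wild type arrays, and its knockout arm, set to 0, had no spread. Sfrp2, a relative of Frzb made by many fibroblasts, read 54.9 and 60.9 against 147 and 137. Its mean rose from 57.9 ± 4.24 to 142 ± 7.07, a ratio of 2.45 of knockout over wild type, with a log2 change of 1.01 ± 0.16 (adjusted p = 0.00929). Sfrp4, a further family member found in connective tissue, read 57.9 and 71.0 against 111 and 158 and rose by 0.82 ± 0.22 (adjusted p = 0.0407), with a ratio of 2.09.

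Sfrp5 was the antagonist measured well on MG-U74B. It read 330.0 and 213 in wild type and 899 and 734 in knockout, so that both knockout arrays lay above the wild type arrays. The mean was 271 ± 83.0 against 816 ± 116, a ratio of 3.01 of knockout over wild type, and the log2 change was 1.53 ± 0.26 (adjusted p = 0.024). The Sfrp members that passed were thus higher in knockout and Frzb lower.

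Each of these rises was lost when certain single arrays were left out. Without wild type replicate 1 or 2, Sfrp2 had an adjusted p of 0.0657 and 0.0561 and Sfrp4 of 0.171 and 0.115, and Sfrp4 was also lost without knockout replicate 2 (0.0768). Sfrp5 was lost when any 1 of the 4 arrays was left out (0.0882 to 0.133). Each kept its direction in all of these fits. The fibroblast and stellate cell markers given above, which rose from 7223 to 7433 to between 20456 and 21607 as a sum, moved the same way, and their part was not tested.

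Dkk3, a Dickkopf relative whose action on Wnt is debated, read 98.5 and 86.0 against 93.7 and 20.2 on MG-U74A. One knockout array lay within the wild type range and the other far below, with a log2 change of -0.68 ± 0.52 (adjusted p = 0.332), which became -1.37 and passed without knockout replicate 1 (adjusted p = 0.0158). Dkk1 and Dkk2, inhibitors of Lrp5 and Lrp6, and Sfrp1 lay between -40.7 and 51.2 on MG-U74A and were not tested. On MG-U74B Wif1, which binds Wnt ligands directly, lay between -10.4 and 25.2, the second Dkk3 probe set between -246 and 4.9, and the second Sfrp1 probe set at -21.6 and 44.2 in wild type against 52.5 and 114 in knockout. These 3 were not tested either.

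Inside the cell, 3 of the 4 relays tested fell in knockout, beside 29.0% lower of all probe sets tested. Ctnnb1, which encodes beta-catenin and also serves in cell adhesion, read 4101 and 4205 in wild type and 2304 and 2272 in knockout. Its replicates lay close together and the genotypes far apart. The mean fell from 4153 ± 74 to 2288 ± 22.6, a ratio of 1.82 of wild type over knockout, with a log2 change of -0.85 ± 0.03 (adjusted p = 0.000289). Dvl1, a Dishevelled adaptor that links Frizzled to the relays below it, read 882 and 878 against 507 and 503. Its log2 change was -0.77 ± 0.05 (adjusted p = 0.000758), a ratio of 1.74. Axin1, the scaffold of the complex that degrades beta-catenin, read 262 and 264 in wild type and 125 and 169 in knockout. It fell by 0.76 ± 0.16 on the log2 scale (adjusted p = 0.0211), with a ratio of 1.80.

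The falls of Ctnnb1 and Dvl1 passed when any 1 array was left out, and that of Axin1 did not without wild type replicate 1 or 2 (adjusted p = 0.106 and 0.110). Axin2, a scaffold that beta-catenin itself induces in many tissues, read 119 and 105 against 97.9 and 69.9 on MG-U74A. Both knockout arrays were lower, and its log2 change of -0.34 ± 0.20 did not pass (adjusted p = 0.230). The Axin2 probe set of MG-U74B and both Dvl2 probe sets were below 0 on all arrays, and Dvl3 read 126 and -26.5 in wild type and 1.7 and 23.0 in knockout.

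Of the transcription factors, Lef1 and Tcf7l1 were higher in knockout. Lef1, a factor that acts with beta-catenin and is also made by immature lymphocytes, read 22.1 and 27.9 in wild type and 146 and 336 in knockout. Wild type was close to 0 and the knockout arrays differed from each other by more than the wild type level. The knockout mean was 241 ± 134, and the probe set reached the level for testing through the knockout arrays. The log2 change was 2.31 ± 0.41 (adjusted p = 0.0128) and ran from 1.88 to 2.65 over the constants tried. The call was lost without wild type replicate 1 or 2 (adjusted p = 0.0614 and 0.0546). Beside it, the sum of the B cell markers was 4252 to 4468 in wild type and 17259 to 18359 in knockout. That of the T cell markers was 835 to 933 against 2151 to 2219. Single genes made much of both rises, Ighm with means of 2343 and 12187 and Ccr7 with 143 and 785. Of the genes tested 6 of 8 and 3 of 5 rose, and Ms4a1, Spib, Zap70 and Cd4 did not pass. The part of these markers in the Lef1 value was not tested.

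The other Lef1 probe sets gave no second reading of this rise. On MG-U74A one read -50.7 and -63.9 in wild type and -13.0 and -10.0 in knockout. On MG-U74B one read 73.3 and 82.8 against -979 and 77.9, where the value of knockout replicate 1 stood apart from the other 3 arrays. Neither was tested.

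Tcf7l1, also called Tcf3, a family member known mainly as a repressor, read -48.1 and -35.1 in wild type and 214 and 165 in knockout. It was listed below 0 in both wild type arrays and had clear signal in both knockout arrays. Its log2 change was 3.09 ± 0.24 (limma adjusted p = 0.00132) and ran from 2.25 to 4.01 over the constants tried. The probe set reached the level for testing through the knockout arrays. Both wild type values were set to 0, so that arm had no spread, and leaving out 1 of its arrays could not change its level. With 1 array left out the log2 change ran from 2.93 to 3.26. A second Tcf7l1 probe set read 16.2 and 74.5 against 54.7 and 52.6, with overlap, and was not tested.

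Tcf7l2, the family member linked to diabetes risk, showed no difference that passed. On MG-U74A it read 269.5 and 289.6 in wild type and 268 and 299.9 in knockout, a log2 change of 0.02 ± 0.10 (adjusted p = 0.880). On MG-U74B it read 113 and 142 against 94.1 and 220.1, with 0.17 ± 0.48 (adjusted p = 0.822). The genotypes overlapped on both, and the standard error was smaller on MG-U74A. Whether the MG-U74A probe set reads Tcf7l2 alone was not checked. The remaining Tcf7l2 probe set, also on MG-U74A, lay far below 0 on every array and carries no level.

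**Figure D3:**
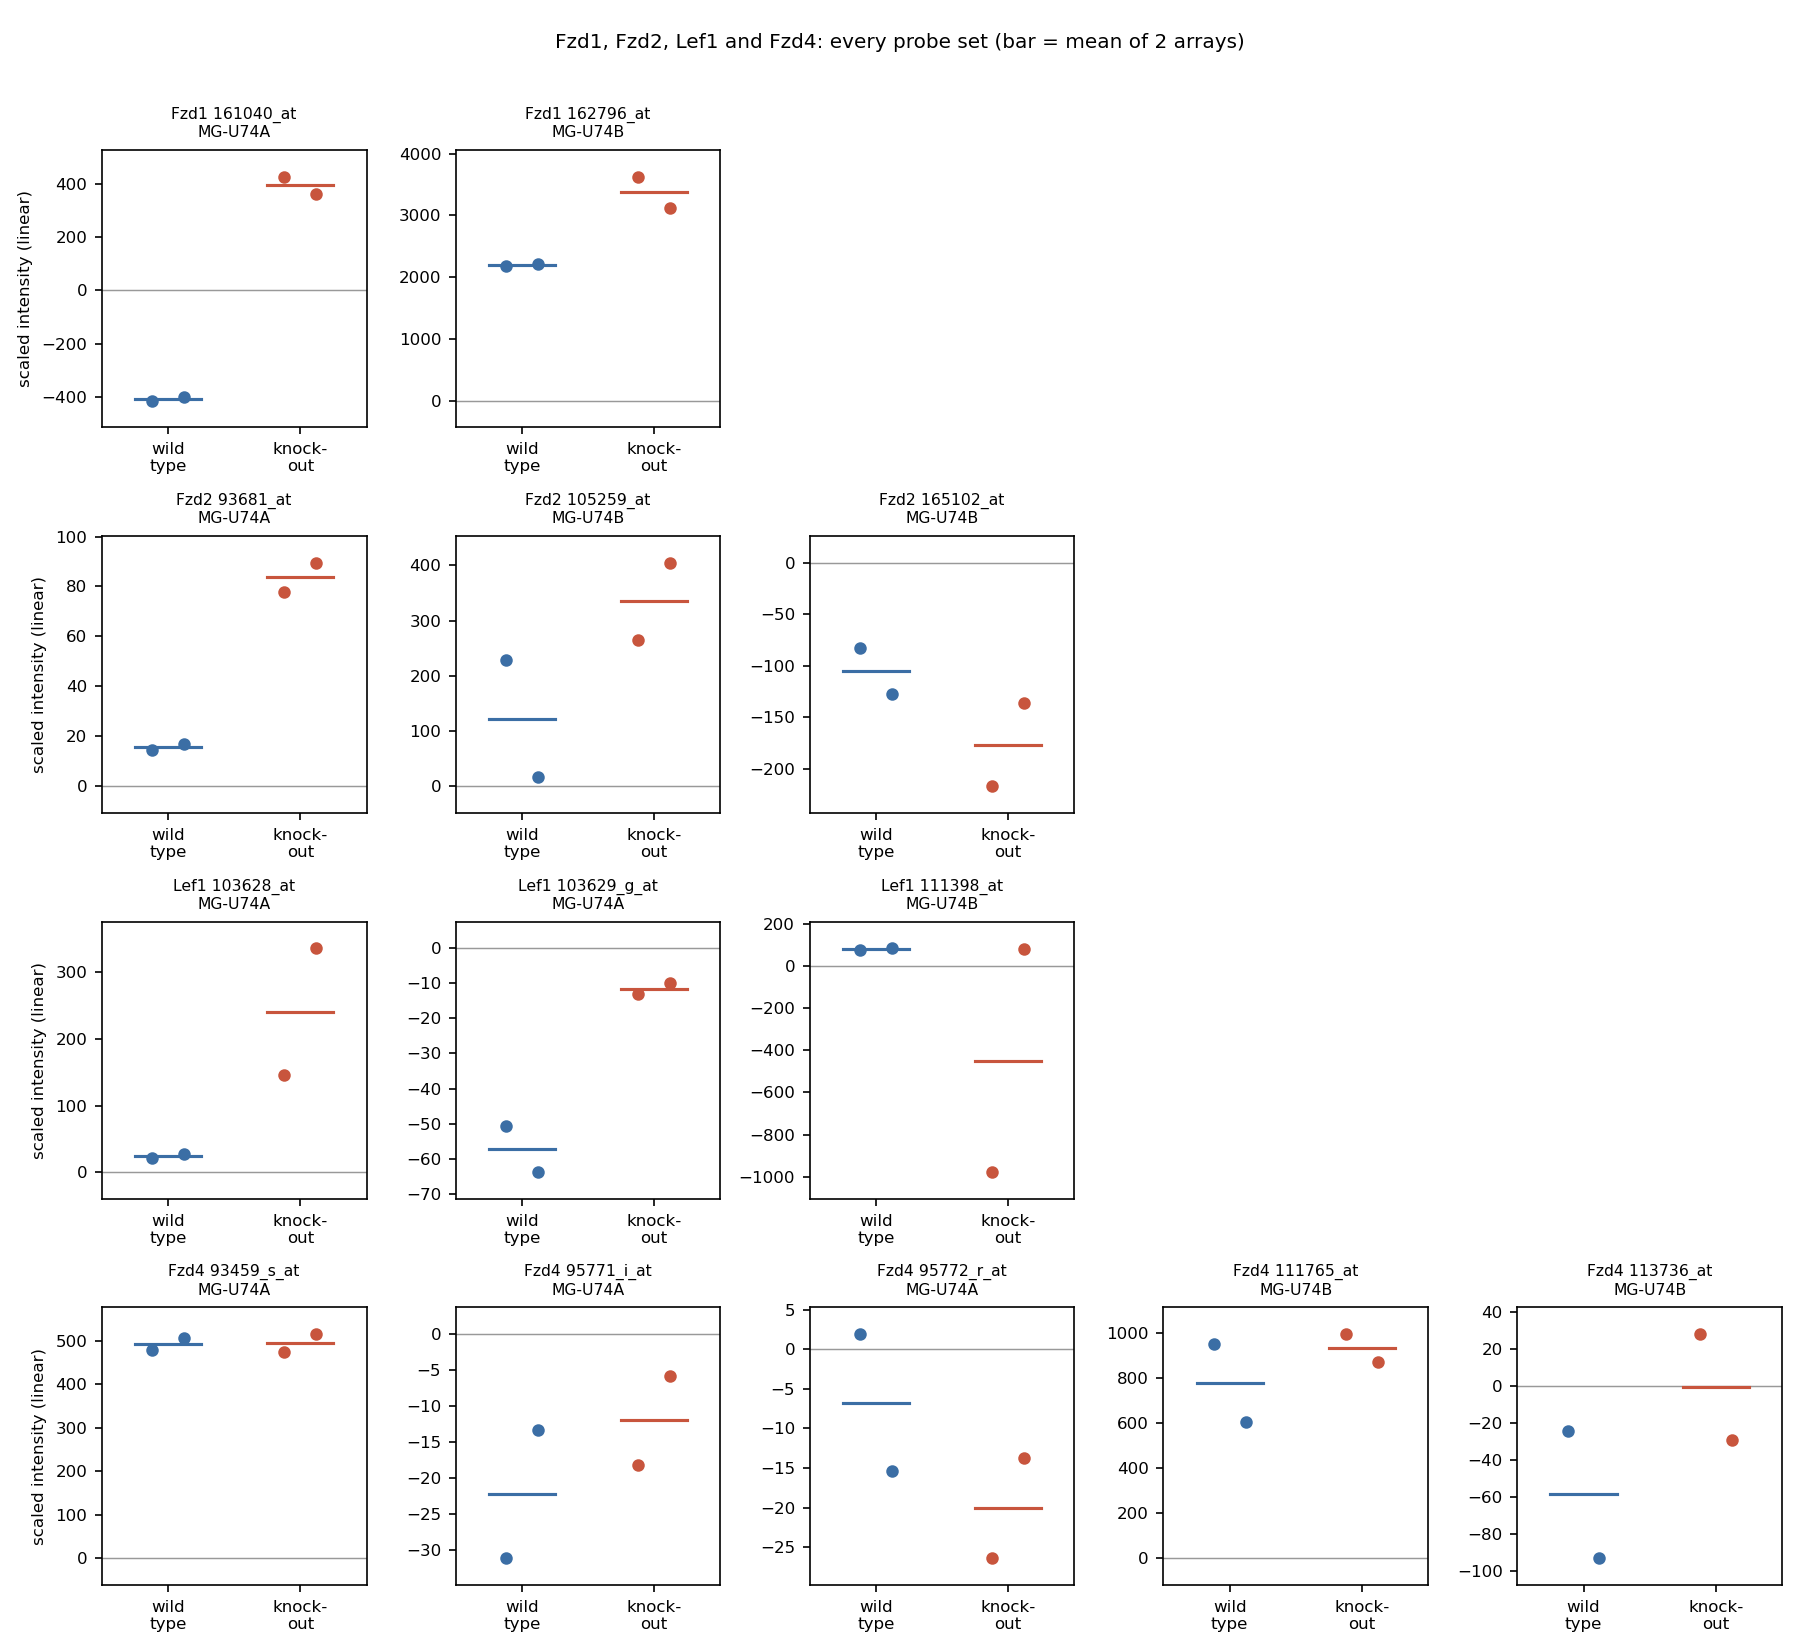
Intensity on each array for every probe set of Fzd1, Fzd2, Lef1 and Fzd4, 1 panel per probe set with its own linear axis that includes 0; points are single arrays and lines are means of 2 arrays per genotype. Both Fzd1 probe sets were higher in knockout, and the Fzd4 probe sets with signal overlapped between genotypes, while 1 knockout array of Lef1 on MG-U74B stood at -979.

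Read by role on MG-U74A, the median log2 change of the tested probe sets was -0.68 for the ligands (8 probe sets, 3 fell), -0.12 for the receptors (4, 1 fell), 0.07 for the antagonists (4, 2 rose and 1 fell), -0.77 for the intracellular relays (4, 3 fell) and 2.31 for the transcription factors (3, 2 rose), against -0.09 over all probe sets tested. These groups are small, and of all probe sets tested on this array type 23.9% rose and 29.0% fell. Of its 50 member probe sets 27 were not tested, 11 of them at or below 0 on all 4 arrays. On MG-U74B 8 of 18 were not tested. Without the filter on low values 12 member probe sets again passed on MG-U74A, 9 of them those above. Lef1, Axin1 and Sfrp4 were lost (adjusted p = 0.0657, 0.0708 and 0.113), and Fzd1 (log2 change 4.07 ± 0.16, adjusted p = 0.00435), Fzd2 (1.41 ± 0.13, adjusted p = 0.0149) and the second Lrp6 probe set (-0.81 ± 0.10, adjusted p = 0.0238) were gained. On MG-U74B the same change lost Fzd1 and Sfrp5 (adjusted p = 0.106 and 0.102) and gained Fzd5 (-2.38 ± 0.14, adjusted p = 0.036). Fzd1 of MG-U74A in wild type, and the second Lrp6 probe set and Fzd5 in knockout, were below 0 on both arrays. Once set to 0 these arms had no spread, and the size of the change depends on the constant. Without the filter, probe sets at or below 0 on all arrays also enter the spread that limma pools over probe sets, with no spread of their own. The background without the filter was 29.0% on the first array type and 6.16% on the second.

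**Figure D4:**
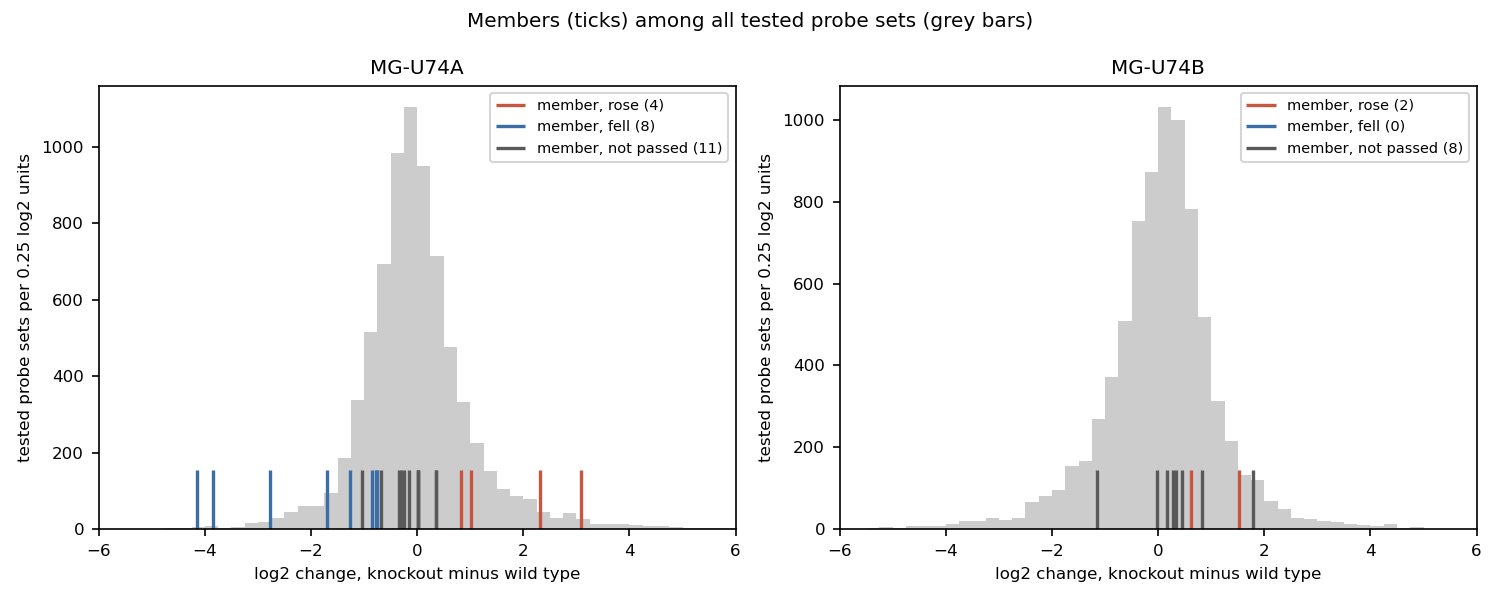
Distribution of the log2 change, knockout minus wild type, over all probe sets tested on each array type (histogram, number of probe sets per bin), with ticks for the member probe sets tested. The members lie between -4.14 and 3.09, with medians of -0.31 (MG-U74A) and 0.39 (the other type) against -0.09 and 0.11 for all.

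Other genes of the pathway were read from lists, each gene by its tested probe set with the highest mean. The list counts stand beside 29.0% lower and 23.9% higher of all probe sets tested on MG-U74A, and 8.87% and 8.59% on MG-U74B. These shares count every tested probe set, so their basis differs from that of the lists. No difference between a list and all probe sets was tested. For Cd44, Ppard, Apc2, Pygo2, Csnk1e and Nkd1, each with arrays below 0, the constant added sets part of the size of the log2 change. Among genes for Wnt secretion and co-receptors, 4 of 10 present on MG-U74A were tested, and 3 fell. Wls, the carrier that brings Wnt proteins to the cell surface, read 753 and 764 in wild type and 289 and 335 in knockout, a log2 change of -1.22 ± 0.09 (adjusted p = 0.0011). Gpc4, a glypican that holds Wnt ligands at the surface, read 583 and 581 against 62.8 and 119, with -2.43 ± 0.26 (adjusted p = 0.00321). Both fell without overlap and passed when any 1 array was left out. Their probe sets on MG-U74B were lower in knockout without passing, Wls with -0.51 ± 0.25 (adjusted p = 0.223) and Gpc4 with -0.59 ± 0.17 (adjusted p = 0.0775). Ryk, a receptor kinase for Wnt, changed by -0.66 ± 0.09 (adjusted p = 0.00687) and was lost without wild type replicate 1 or 2 (0.0631 and 0.0714). On MG-U74B 7 were tested and 1 fell, Lgr4, a receptor of the R-spondins, with -0.86 ± 0.18 (adjusted p = 0.0382). The medians were -0.94 and -0.42 on the array types, over these few genes.

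In the list of other extracellular inhibitors 3 genes were tested on MG-U74A, with a median of -0.27. Igfbp4, which also binds insulin-like growth factors, rose by 1.13 ± 0.07 (limma adjusted p = 0.000737). Tfpi2, listed here although known as a protease inhibitor, fell by 0.27 ± 0.06 on the log2 scale (limma adjusted p = 0.0232). The Tfpi2 call was lost without wild type replicate 1 or 2 (0.0915 and 0.152) and without knockout replicate 2 (0.0503). On MG-U74B the median of the 4 tested was 0.40.

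Of 18 cytoplasmic components tested on MG-U74A 7 fell and 1 rose, with a median of -0.48 against -0.09 over all probe sets. Tnks2, a tankyrase that marks Axin for breakdown, read 600.0 and 579 in wild type and 254 and 227 in knockout, a log2 change of -1.21 ± 0.08 (adjusted p = 0.00101). It passed when any 1 array was left out, and on MG-U74B it gave -1.05 ± 0.25 without passing (adjusted p = 0.0533). Apc2, a relative of the tumour suppressor Apc, changed by -2.31 ± 0.39 (adjusted p = 0.011) and Frat1, which binds Gsk3, by -1.23 ± 0.22 (adjusted p = 0.0134). Csnk1d, a casein kinase, rose by 0.43 ± 0.08 (adjusted p = 0.0144). Without wild type replicate 1 or 2 these 3 were lost, Apc2 with adjusted p of 0.054 and 0.0741, Frat1 with 0.0854 and 0.0657 and Csnk1d with 0.0854 and 0.0652. On MG-U74B 2 of 10 fell, Csnk1e (-3.88 ± 0.45, adjusted p = 0.0106) and Nkd1, an inhibitor that Wnt signals induce (-3.33 ± 0.51, adjusted p = 0.0195), both listed below 0 in both knockout arrays. On MG-U74A Csnk1e gave -0.97 ± 0.45 and did not pass (adjusted p = 0.144).

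Among 11 nuclear cofactors tested on MG-U74A 5 fell, 1 rose and the median was -0.47. Tle5, a short relative of the Groucho co-repressors, read 2561 and 2546 in wild type and 978 and 1047 in knockout, a log2 change of -1.31 ± 0.05 (adjusted p = 0.00026). Nlk, a kinase that acts on TCF/LEF factors, fell on both array types, with -1.23 ± 0.14 (adjusted p = 0.00361) on MG-U74A and -1.71 ± 0.37 (adjusted p = 0.0409) on MG-U74B. Tle1, a Groucho co-repressor, changed by -1.09 ± 0.17 (adjusted p = 0.00832) and was lost without wild type replicate 1 or 2 (0.0677 and 0.0693). Pygo2, a co-activator of beta-catenin, rose by 2.45 ± 0.45 (adjusted p = 0.0136) from 24.0 and -16.1 to 212 and 129, and was lost without knockout replicate 1 (0.0683). On MG-U74B 1 of 7 fell, Nlk, and 1 rose, the repressor Hbp1, with 0.64 ± 0.15 (adjusted p = 0.049).

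Among 18 genes of the polarity and calcium branches tested on MG-U74A 6 fell, 2 rose and the median was 0.01. Camk2b, a calcium-dependent kinase, read 1095 and 1103 in wild type and 287 and 269 in knockout, a log2 change of -1.89 ± 0.06 (adjusted p = 0.000202). Prkcb, a protein kinase C, fell by 1.24 ± 0.06 (adjusted p = 0.000421), and both passed when any 1 array was left out. The Prkcb probe set of MG-U74B had the opposite sign, 0.37 ± 0.35, and did not pass (adjusted p = 0.489). Rock1, a kinase below RhoA, changed by -0.90 ± 0.14 (adjusted p = 0.00844) and was lost without wild type replicate 2 (0.0616). Celsr2, a cadherin of planar polarity, rose by 1.71 ± 0.28 (adjusted p = 0.00956) and was lost without knockout replicate 1 or 2 (0.0603 and 0.0575). Rhoa rose by 0.30 ± 0.05 (adjusted p = 0.0118) and was lost without wild type replicate 1 or 2 (0.0872 and 0.0826). On MG-U74B 2 of 15 fell, Prkca (-1.39 ± 0.14, adjusted p = 0.00889, with -0.88 ± 0.18 and adjusted p = 0.0191 on MG-U74A) and Prickle1 (-1.54 ± 0.35, adjusted p = 0.0457), with a median of 0.03.

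Textbook target genes of canonical signalling moved in both directions, 6 higher and 7 lower of 17 on MG-U74A with a median of -0.22. Cd44, a hyaluronan receptor that leukocytes and fibroblasts also carry, read -17.1 and -9.8 in wild type and 325 and 306 in knockout, a log2 change of 3.76 ± 0.18 (adjusted p = 0.00044). Id2, an inhibitor of helix-loop-helix factors, rose from 1377 and 1426 to 2906 and 2984, by 1.06 ± 0.04 (adjusted p = 0.00026). Lef1, given above, is a member of this list too. Ppard, a lipid-sensing nuclear receptor, read 163 and 174 against -10.0 and 16.8, with -2.58 ± 0.33 (adjusted p = 0.00505), and Vegfa, the vessel growth factor, 986 and 959 against 493 and 502, with -0.93 ± 0.05 (adjusted p = 0.000523). Ephb3, a guidance receptor, changed by -1.94 ± 0.54 (adjusted p = 0.0431) and was lost without wild type replicate 1 or 2 (0.139 and 0.134). Id2, Ppard and Vegfa passed when any 1 array was left out. For Cd44 both wild type values were set to 0, so that arm had no spread, and leaving out 1 of its arrays could not change its level. With 1 array left out the log2 change of Cd44 ran from 3.72 to 3.81. On MG-U74B 1 of 9 rose, Cd44 (0.52 ± 0.11, adjusted p = 0.0427), and 2 fell, Nkd1 and Vegfa (-1.07 ± 0.13, adjusted p = 0.011), with a median of -0.05. Ppard read 1571 and 1567 in wild type and 1496 and 1530 in knockout there, a log2 change of -0.05 ± 0.10 that did not pass (adjusted p = 0.735), so its 2 probe sets gave different readings.

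No call on MG-U74B, of members or of other pathway genes, held without wild type replicate 1 or 2, since 0 of the 7861 probe sets passed limma's adjusted threshold in either of those fits, although 1873 and 1817 had an unadjusted p under 0.05. Without knockout replicate 1 or 2 the numbers of all probe sets that passed there were 312 and 538, against 1372 with all arrays. Cd44 and Vegfa moved the same way on both array types, Cd44 by much less where wild type had signal.

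**Figure D5:**
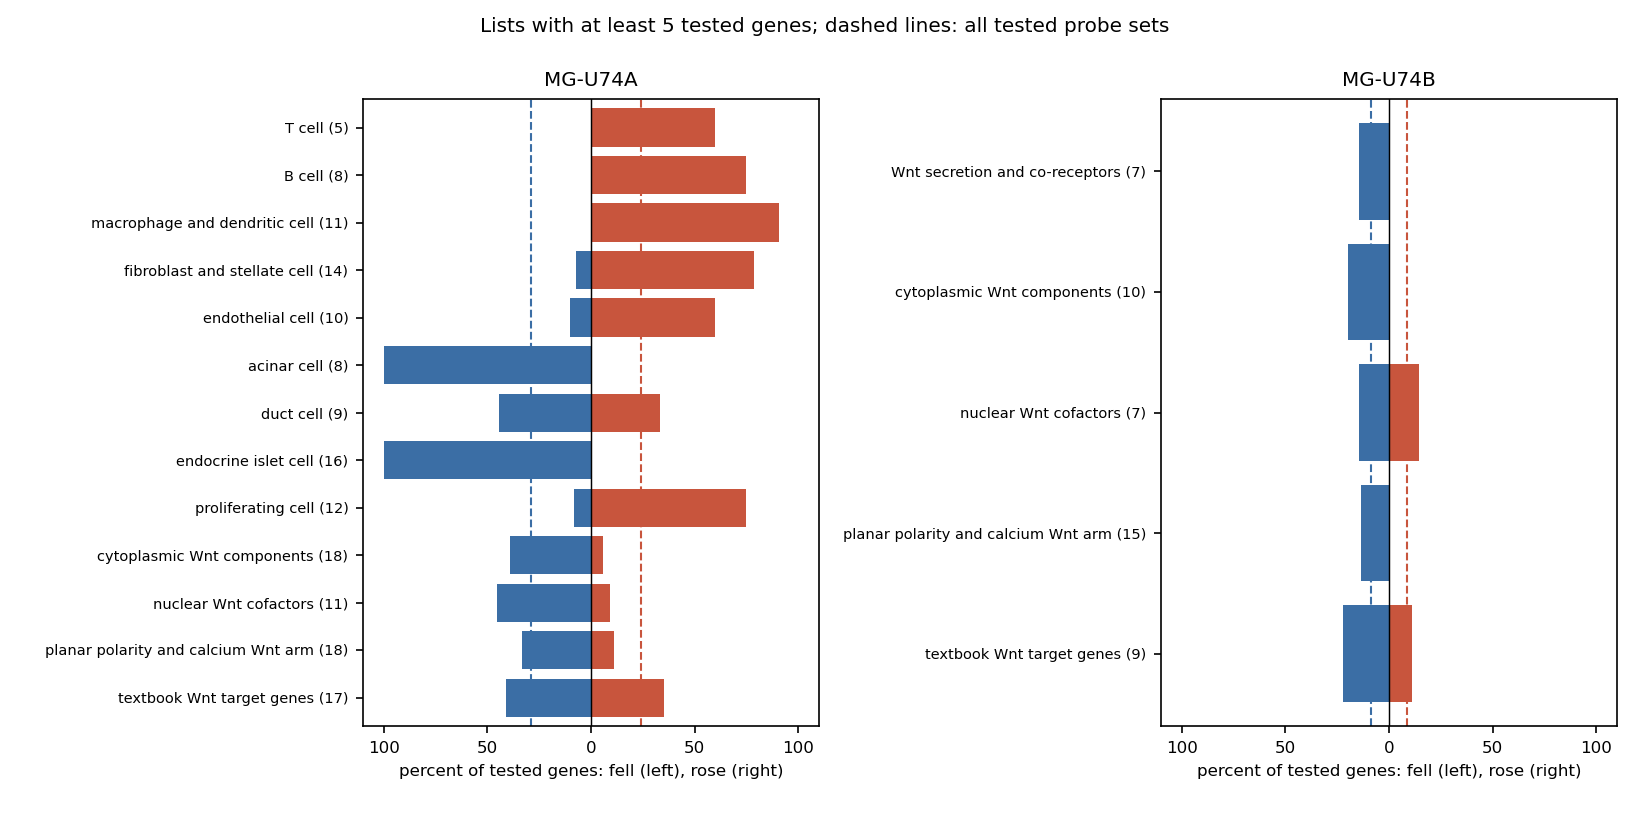
Percent of tested genes that fell (bars to the left) or rose (bars to the right) in knockout in each list with at least 5 tested genes, the number tested in brackets, on MG-U74A and MG-U74B; dashed lines mark the percent of all tested probe sets. A gene counts once, by its tested probe set with the highest mean, while the dashed lines count every tested probe set. All acinar and endocrine markers fell and most immune and fibroblast markers rose. The cytoplasmic and nuclear Wnt lists had more genes lower than higher on MG-U74A.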

How the data were processed

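For each array the authors deposited 1 linear intensity per probe set, already scaled to a trimmed mean of 250.2 on MG-U74A, with 2% of the probe sets left out at each end. Which program made the intensities, the sources used here do not give. Of an array's values 18.4% to 26.7% were below 0. Each array was brought to the common trimmed mean of its type by 1 factor, negative values were raised to 0, and the log2 scale was reached by adding a constant of 25.0 (10% of that mean) first. Fold changes on this scale understate the change of low genes. Where both arrays of a genotype were below 0 they became the same value. That arm then had no spread, and leaving out 1 of its arrays left its level unchanged. Among the members that passed, this held for Wnt4, Wnt5b and Frzb in knockout and for Tcf7l1 in wild type. Probe sets with a mean over 4 arrays below 62.5 (25% of the trimmed mean) and 66 control probe sets per type were left out, so 7516 and 7861 were tested. Knockout was compared with wild type by lmFit and eBayes with a variance trend (limma 3.58.1, R 4.3.3), two-sided and without a replicate block, with Benjamini-Hochberg adjustment over each array type and a threshold of 0.05. The smallest p that exact permutation of 2 against 2 arrays allows is 0.333. All p-values therefore depend on the spread limma pools over probe sets, and this spread between arrays may be technical in part. The number of arrays limits the precision. The fit was tested on simulated data.

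Names come from the platform annotation, which gave 1 symbol for 10855 probe sets of MG-U74A and 10603 of MG-U74B and several for 396 and 178, which were not used, and symbols were updated through RefSeq (GRCm38.p6, names only). All members are accounted for. Those described in full are the probe sets past the threshold, genes with several probe sets and the core members Ctnnb1, Axin1, Axin2, Tcf7l1, Tcf7l2, Lef1, Lrp5 and Lrp6. From each other list at most the 3 largest rises and 3 largest falls that passed are named per array type. A listed gene was read from its tested probe set with the highest mean. The members and lists were chosen with earlier results of these data known. Replicates with the same number did not deviate together (correlation 0.02 on MG-U74A and 0.03 on MG-U74B, over 2 pairs each), so the numbers were not used as a pairing. The alternatives were other constants, scalings and filters, no variance trend, the replicate block, leaving out each array, and an asinh scale without a floor, the last chosen after seeing the data.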

Additional observations from a re-analysis of the deposited data

Results flagged for a closer look

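Probe sets left out of the test for their low mean still held signal in knockout for 2 Frizzled genes on MG-U74A. Fzd1 had a knockout mean of 395 there while both wild type arrays were below 0. The Fzd2 probe set had a knockout mean of 83.7 and wild type values of 14.5 and 17.0. Their part in the differences between the genotypes was not tested further, beyond the fit without the filter, in which both passed. For Fzd1 both wild type values were set to 0 in that fit, so this arm had no spread.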

How the results depend on the processing

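On MG-U74A the count of 12 member probe sets stayed at 12 with both other constants, quantile normalization, equal medians, no filter, no variance trend and the asinh scale. Of all probe sets tested, 50.4% to 53.7% passed in these fits, and 29.0% without the filter. With the filter at 50% of the trimmed mean the count was 7 of 13 tested, beside 60.2% of all. The calls on MG-U74A also depended on single arrays. Lef1, Axin1, Sfrp2 and Sfrp4 did not pass without wild type replicate 1 or 2, and a smaller share of all probe sets passed in those fits. On MG-U74B the count of 2 became 1 without the filter, beside 6.16% of all probe sets tested. Without the variance trend it was 0 (3 at an unadjusted p under 0.05 in limma), beside 8.12%. With the replicate block the counts were 12 and 2, beside 48.3% and 15.4%, and no call of a member changed. The 14 member probe sets that passed kept their direction in each alternative that tested them. The sign turned only for probe sets that had not passed: Wnt7b on MG-U74A was -0.036 with quantile normalization and -0.0067 with equal medians, and Fzd4 there -0.0094 with equal medians. Over the fits that left out 1 array, log2 changes ran from -0.11 to 0.13 for Wnt7b, -0.049 to 0.063 for Fzd4, -0.054 to 0.094 for Tcf7l2, -1.37 to 0.020 for Dkk3 and -0.56 to 0.24 for Wnt10a on MG-U74A, and from -0.031 to 0.60 for Fzd4, -0.50 to 0.45 for Wnt7b, -0.0056 to 1.64 for Fzd6 and -0.35 to 0.69 for Tcf7l2 on MG-U74B. The cause was not tested. Where an arm had 1 array, it was assumed to vary like the other arm. Signal limits the rest, as 35 of the 68 member probe sets were too low to test.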
